A study of Mus musculus with 288 samples.

Results

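Gcg-high L-cells are the sorted mouse intestinal cells in which Gcg, the proglucagon gene, reached at least 10000 CPM (counts scaled to the total of reads on mouse genes in a cell) while Gip, the gene of glucose-dependent insulinotropic polypeptide, stayed under 10000 CPM. By this rule 54 of the 250 kept cells were members. Pool SLX-11175 held 17 of them, pool SLX-11179 18 and pool SLX-9703 19, and values for the pools are given in this order throughout. Members were chosen by their measured Gcg and Gip levels, so these genes are described without a test. The cells came from the first 10 cm of the small intestine of untreated male GLU-Venus mice, aged 20 to 21 weeks and on a C57BL6 background, in which the proglucagon promoter drives the fluorescent protein Venus. Single cells were sorted and sequenced by Smart-seq2, and 288 cells in 3 pools of 96 were deposited. The labels name the pool and not the mouse, so each pool is taken as 1 mouse and as 1 replicate, and p-values measure the spread among 3 pools. The study describes cells without Venus in the shallow pools, which the labels do not set apart.

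L-cells are enteroendocrine cells of the gut epithelium that cut proglucagon into the glucagon-like peptides GLP-1 and GLP-2, and many also make peptide YY. They take up or sense fats, sugars and amino acids from the gut lumen and release their peptides from secretory granules, of which granins are structural proteins. GLP-1 raises insulin secretion after a meal, and peptide YY slows gut transit and reduces food intake.

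Gcg lies on the minus strand at chr2:62474530-62483650 (mm10). Its promoter is shown because the level of Gcg helped to choose the members and because, in the transgene, the promoter drives the fluorescence by which the cells were sorted. The 250 bases before the RefSeq start of Gcg, at chr2:62483654-62483903 (minus strand, GRCm38.p6), are printed with both matches of TAAT, read on either strand, in capitals.

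Gcg: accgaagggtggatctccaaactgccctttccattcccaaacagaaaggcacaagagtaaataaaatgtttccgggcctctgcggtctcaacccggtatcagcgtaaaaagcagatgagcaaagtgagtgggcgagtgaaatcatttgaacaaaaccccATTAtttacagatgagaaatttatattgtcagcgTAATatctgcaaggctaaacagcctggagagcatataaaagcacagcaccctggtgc

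TAAT is the core that homeodomain factors such as Isl1 and Pax6 commonly recognise. The matches begin at -91 and -57 from the start, and 54.9% of 32851 mouse promoters of this length hold at least 1 such match, and 30.8% hold at least as many as Gcg.

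In the kept cells, reads on mouse genes ranged from 20121 to 779919 in the shallow pools and from 319966 to 4368674 in pool SLX-9703. Members had a median of 60624, 71332 and 2400020 reads in the 3 pools, and a median of 3936, 3978 and 9650 genes with a read. The other kept cells of the same pools had a median of 50618, 70726 and 1756520 reads. Mitochondrial genes held a median of 2.27%, 2.92% and 3.72% of the reads of members and 2.57%, 3.22% and 5.19% of those of the other cells. Levels given for a pool are the CPM of the reads summed over the cells of a class, which weighs deeper cells more.

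Gcg was a major transcript of the members. Summed over members it reached 108634, 120791 and 149313 CPM in the 3 pools (126246 ± 20881, mean ± SD, n = 3 pools), against 1611, 1269.5 and 4891 CPM in the other kept cells. The sums of the others include the cells with both Gcg and Gip, up to 135588 CPM in 1 cell, and their medians over cells were 91.3, 83.2 and 324 CPM. Single members ranged from 22468 to 227440 CPM (median 84219) in the first pool, from 15024 to 271139 (median 98798) in the second and from 11122 to 361155 (median 157582) in the third. Within each pool the members spanned far more than the difference between the pool medians. The lowest members had 11122, 15024 and 17626 CPM, and the cells nearest below the limit had 7924, 8168 and 9545 CPM. At least 1000 CPM of Gcg was also present in 43 of the 196 other cells. In 4 kept cells both Gcg and Gip were at least 10000 CPM, and the rule leaves these out. Gip itself had a median of 24.5 CPM in members, and 2 of the 54 members, both in pool SLX-9703, exceeded 1000 CPM.

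**Figure D1:**
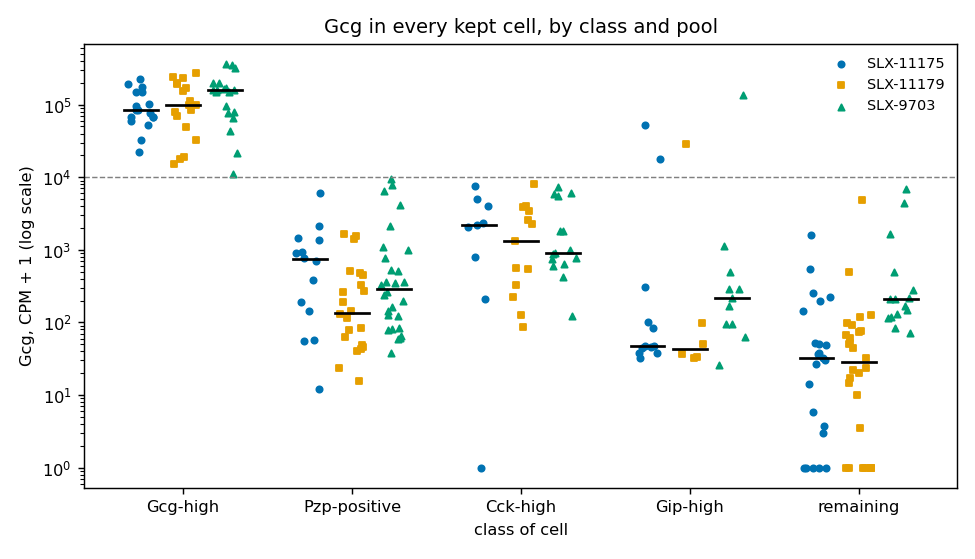
Gcg in every kept cell, in CPM + 1 on a log axis, by class and pool; black bars are medians and the dashed line is the limit of 10000 CPM. The 4 cells of the Gip-high class above the line carry both hormones, and the Cck-high class has the next highest medians.

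Every member carried the message of a second gut hormone. All 54 had at least 1000 CPM of Cck, the gene of cholecystokinin, 42 had that much Sct (secretin), 34 Ghrl (ghrelin), 15 Pyy (peptide YY) and 4 Nts (neurotensin). Counting these 5 genes at 1000 CPM, 3 members had 1, 19 had 2, 22 had 3 and 10 had 4 or more. Among the 196 other cells, 132 reached 1000 CPM of Cck and 9 that of Pyy, and 46 had none of the 5.

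Per kilobase of exon, Cck and Gcg were the most abundant of these messages in members. Cck had 104126 ± 10171 CPM per kilobase and Gcg 84502 ± 13976, and on these sums Cck was above Gcg within each pool. Their ranges over pools overlapped (92492 to 111339 and 72714 to 99942). Before division by exon length, the medians over members of pool SLX-9703 were 157582 CPM for Gcg and 132351 CPM for Cck. Sct followed with 29606 ± 5214, then Ghrl with 12465 ± 3795, Pyy with 2845 ± 1273 and Nts with 239.97 ± 185.6 (CPM per kilobase, mean ± SD, n = 3 pools). From Sct down to Nts, the pool ranges of neighbouring hormones did not overlap. Sst, the somatostatin gene, had no read in any of the 54 members.

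The hormones differed in how evenly members carried them. Cck in single members ranged from 3138 to 301976 CPM with a median of 121712 in all pools together. Sct ran from 123 to 107900 CPM with a median of 4248. Ghrl ran from 0 to 69067 CPM with a median of 3444. Pyy ran from 0 to 15864 CPM with a median of 204, and a single cell held 51.99%, 47.5% and 26.2% of the members' Pyy reads in the 3 pools.

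**Figure D2:**
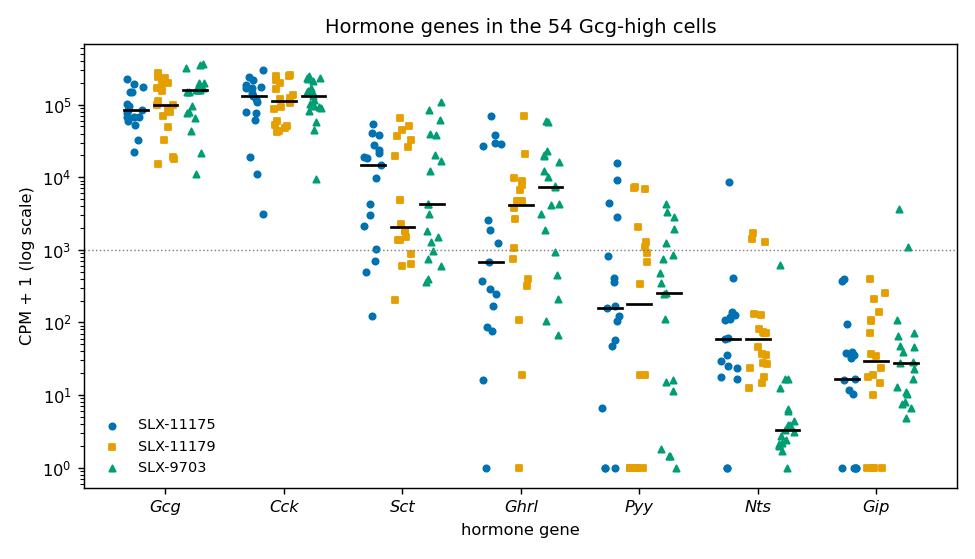
Levels of 7 hormone genes in each of the 54 members, in CPM + 1 on a log axis, by pool; black bars are medians and the dotted line is 1000 CPM. Gcg and Cck were high in nearly every member, while Sct, Ghrl and Pyy spread over several orders of magnitude.

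Members were then compared with all other kept cells of the same pool by edgeR's quasi-likelihood test on the summed counts. Of 12049 genes tested, 48 (0.398%) differed, 8 higher in members (0.0664%) and 40 lower (0.332%), at a false discovery rate of 0.05, and 937 had an unadjusted p below 0.05. The comparison cells are mixed: they include Pzp-positive, Cck-high and Gip-high endocrine cells and, in the shallow pools, cells rich in immunoglobulin reads. Of the 196 others, 66 met none of the limits of these endocrine classes (23, 28 and 15 in the 3 pools). These remaining cells held 2715465 of 4749249, 3298958 of 6855434 and 17675539 of 120567131 reads in the sums of the others. Against other endocrine cells alone, 6 genes were higher and 27 lower. The count was 148 (24 higher, 124 lower) without pool SLX-9703, and 17 (0 higher) without the pool as a block. Levels below are CPM, while fold changes are on the log2 scale after TMM scaling, which matters most in pool SLX-11175, where immunoglobulin genes took much of the reads of the other cells.

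The higher genes were a hormone, a receptor, a hormone-modifying enzyme and 5 genes with other roles. None of these 8 genes was among the 4 that passed against Cck-high cells, a comparison described below. Pyy had 2461, 2022 and 903 CPM in the members of the 3 pools, and 606, 188 and 139.7 CPM in the other cells. Every member value was above every value of the others, as for 4.59% of all genes tested. The difference was 2.47 ± 0.41 (log2, SE; edgeR adjusted p = 0.0426), and it missed the threshold against other endocrine cells alone (1.97, adjusted p = 0.0982) and without pool SLX-11179 (2.01, adjusted p = 0.0906). Of 17 alternative settings, 10 kept the call of Pyy. With each cell thinned to 20000 reads, a Pyy read was found in 76.5% of members (95% Clopper-Pearson interval 50.1 to 93.2%) of the first pool, in 9 of 18 (26.02 to 73.98%) of the second and in 68.4% (43.4 to 87.4%) of the third. In the other cells, which serve as the background, these shares were 20.7%, 13.04% and 18.8%. Without thinning the shares were 82.4%, 61.1% and 94.7% in members and 25.9%, 20.3% and 72.5% in the others. These intervals cover counting error only.

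Gpr119, a receptor for lipid amides and monoacylglycerols whose activation raises GLP-1 release, had 110.2, 78.2 and 149.6 CPM in members and 10.1, 21.6 and 41.1 CPM in the others. The pools did not overlap, and members were higher by 2.11 ± 0.30 (log2, SE; edgeR adjusted p = 0.0204). Against other endocrine cells alone the difference was 1.63 (adjusted p = 0.0713), and without pool SLX-11175 it was 1.87 (adjusted p = 0.0524). A read of Gpr119 was present in 39 of the 54 members and in 52 of the 196 others, and after thinning in 47.1% of members in the first pool, 9 of 18 in the second and 57.9% in the third against 13.8%, 13.04% and 21.7% of the others.

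Mboat4, the acyltransferase that makes ghrelin active, showed the highest fold of the 8 genes. Its CPM was 178, 33.2 and 37.4 in members and 1.26, 3.501 and 3.71 in the others, a log2 difference of 4.09 ± 0.59 (edgeR adjusted p = 0.0222). It came from few cells: 17 of the 54 members had a read, and 1 cell held 83.1%, 60.4% and 41.1% of the reads in the 3 pools. Without pool SLX-11175 the difference was 3.31 (adjusted p = 0.0544). In the 17 members with a Mboat4 read, the median level of Ghrl, its substrate, was 8779 CPM, against 2568 CPM in the 37 members without one. Within pools, these medians were 19461 and 372 CPM in pool SLX-11175 and 13020 and 3144 CPM in pool SLX-9703. In pool SLX-11179 this order was the other way round, with 1059 and 4646 CPM. Mboat4 overlaps Gm39158, and Ghrl overlaps Gm26982 and Gm44033, on the other strand, and the libraries do not mark the strand.

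Fap, a serine protease of the dipeptidyl peptidase family, had 932, 464 and 723 CPM in members and 104, 140.2 and 187 CPM in the others. The difference was 2.02 ± 0.25 (log2, SE; edgeR adjusted p = 0.00794), and it stayed past the threshold when any 1 pool was left out and against other endocrine cells alone (1.72, adjusted p = 0.0149). A read of Fap was found in 53 of the 54 members. Anpep, the brush border aminopeptidase N that trims peptides, was close to even across pools in members, with 324, 271 and 292 CPM, and had 37.5, 82.4 and 128 CPM in the others (1.73 ± 0.27, edgeR adjusted p = 0.0332).

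Cd177, a surface protein best known from neutrophils, had 165, 76.9 and 169 CPM in members and 16.4, 2.48 and 32.3 CPM in the others (3.16 ± 0.47, edgeR adjusted p = 0.0249). Reads were found in 24 of the 54 members, and 1 cell held 77.1% of them in the first pool and 88.6% in the second. The alcohol dehydrogenase gene Adh1, which overlaps Gm16559, differed by 1.42 ± 0.23 (edgeR adjusted p = 0.0363), from 359, 429.8 and 760.3 CPM in members to 66.5, 158 and 339 CPM in the others. For Fars2, the mitochondrial phenylalanine tRNA synthetase, which overlaps Lyrm4 and Nrn1, members had 257, 206 and 292 CPM and the others 45.7, 66.4 and 111 CPM (1.58 ± 0.23, edgeR adjusted p = 0.0249). Of these 8 genes, all kept non-overlapping pool values, as did 4.59% of all genes tested with members above. Anpep, Fars2 and Adh1 missed the threshold without pool SLX-11175 (adjusted p = 0.0669, 0.0596 and 0.0792) and without pool SLX-11179 (adjusted p = 0.0805, 0.0921 and 0.123). With the Gcg limit lowered to 5000 CPM, Cd177, Fap and Fars2 kept their calls, and Mboat4 (3.90, adjusted p = 0.0502), Gpr119 (1.996, adjusted p = 0.0502), Anpep (1.65, adjusted p = 0.0619), Adh1 (1.27, adjusted p = 0.079) and Pyy (2.36, adjusted p = 0.086) missed the threshold.

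**Figure D3:**
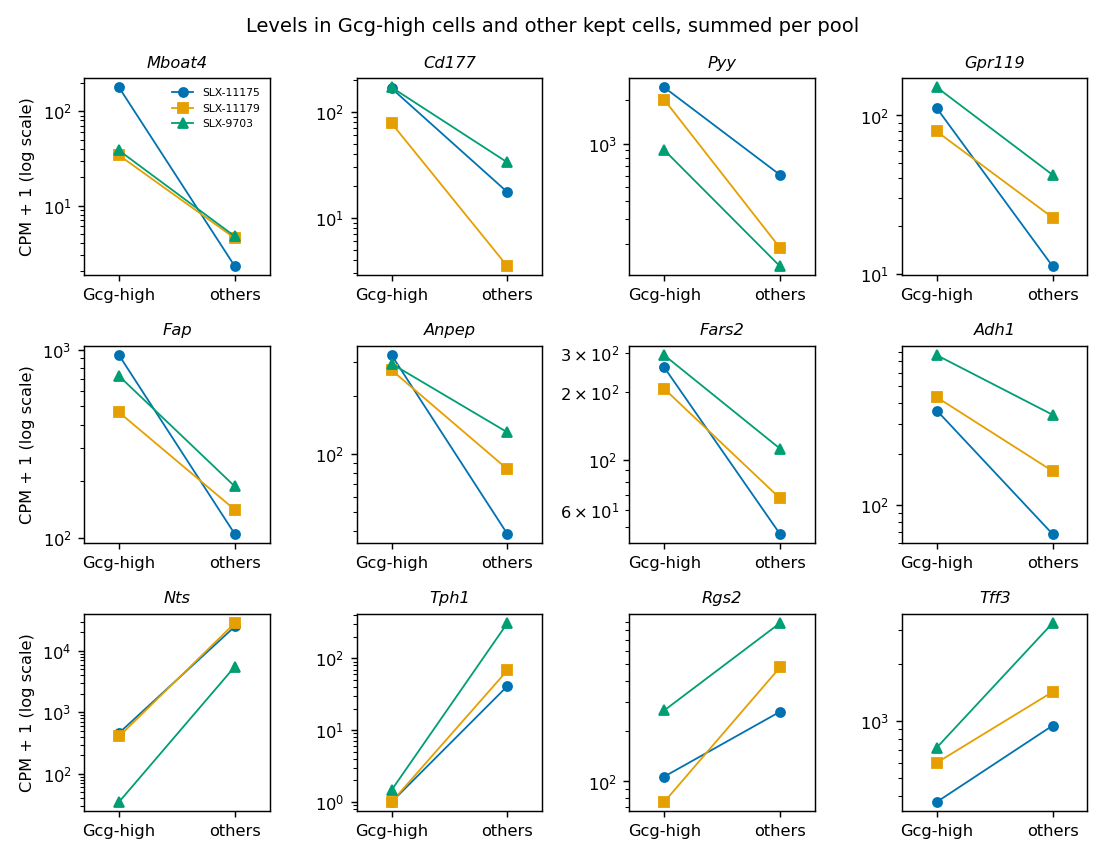
CPM + 1 on a log axis in members (Gcg-high) and other kept cells, each point the sum of 1 pool and each line joining the classes of a pool. Mboat4 to Adh1 are the 8 higher genes, with every member value above every other value; of the 4 lower genes shown, Rgs2 alone has member and other values that overlap (265 and 260.0 CPM).

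Among the 40 lower genes were those of other endocrine cells. Nts, the neurotensin gene, had 459.8, 405 and 33.9 CPM in members and 24917, 28408 and 5561 CPM in the others (log2 difference -6.68 ± 0.37, edgeR adjusted p = 5.9e-05). Its medians over cells lay closer, at 57.2, 57.8 and 2.3 CPM in members and 48.7, 95.8 and 9.35 CPM in the others. In the first pool the member median was the higher one. At least 10000 CPM of Nts was reached by 28 of the 196 others and by none of the 54 members. A single cell held 85.2%, 48.995% and 88.9% of the members' Nts reads in the 3 pools. Tph1, the rate-limiting enzyme of serotonin synthesis, had no read in the members of the shallow pools and 0.464 CPM in those of pool SLX-9703, where the highest of 19 cells had 2.21 CPM. In the other cells it had 40.2, 67.4 and 310.3 CPM (-9.35 ± 0.52, edgeR adjusted p = 5.9e-05). Ddc, which carries out the next step of serotonin synthesis, had 234, 215 and 486 CPM in members and 155, 228 and 436 CPM in the others (-0.04 ± 0.23, edgeR adjusted p = 0.986).

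Rgs4, a regulator that ends G protein signals, had 1 read in all 54 members together, in pool SLX-11179. The others of that pool had 109 times its level, with a counting interval of 19.4 to 4301, and their CPM was 41.1, 67.98 and 69.6 in the 3 pools (edgeR adjusted p = 0.00187). Rgs2, of the same family, was lower by 2.16 ± 0.28 on the log2 scale (edgeR adjusted p = 0.0125), with 106, 74.4 and 265 CPM in members and 260.0, 480.1 and 883 CPM in the others. Fabp5, a fatty acid binding protein, had 24.97, 14.4 and 42.2 CPM in members and 93.7, 146 and 222 CPM in the others (-2.77 ± 0.31, edgeR adjusted p = 0.00516). When cells with both Gcg and Gip above the limit were counted as members, Fabp5 differed by -0.71 (adjusted p = 0.75), Rgs4 by -6.26 (adjusted p = 0.23) and Cd44, described next, by -1.58 (adjusted p = 0.576).

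Pzp, a protease inhibitor, fell by 7.07 on the log2 scale and Habp2, a serine protease, by 5.86. For Ambp, the precursor of a microglobulin and bikunin, the log2 difference was -3.87, for Pgc (progastricsin) -5.67, for Gpx3 (extracellular glutathione peroxidase) -4.34 and for the cytochrome P450 Cyp2j5 -4.77. Their edgeR adjusted p lay between 0.00129 and 0.0133, and the 5 other than Pzp were also lower against other endocrine cells alone. Pzp helped to choose those cells, so it is not compared with them. The goblet cell genes Tff3 and Fcgbp fell too, Tff3 from 941, 1418 and 3283 CPM in the others to 370.2, 598 and 719 CPM in members (-1.86 ± 0.26, edgeR adjusted p = 0.0202) and Fcgbp with a difference of -3.41 ± 0.37 (adjusted p = 0.00407). Cd44 and Nt5e, surface proteins, differed by -3.83 and -2.99 (adjusted p = 0.00336 and 0.00321). Of the 15 lower genes that the naming rule selects, which also include Cd52, Prss30 and Adgrd1, all had pool values below those of the others without overlap, as did 3.55% of all genes tested. The call was lost for Prss30 without pool SLX-11175 (adjusted p = 0.0524) and for Cd52 and Adgrd1 without pool SLX-11179 (adjusted p = 0.0624 and 0.0776). Against other endocrine cells alone Adgrd1 differed by -1.53 (adjusted p = 0.821) and Prss30 by -3.25 (adjusted p = 0.195), and Cd52 was not tested. With the Gcg limit of the members lowered to 5000 CPM, the calls of Tph1 (-4.10, adjusted p = 0.141), Nts (-5.17, adjusted p = 0.0997), Pzp (-4.05, adjusted p = 0.0595), Habp2 (-4.24, adjusted p = 0.0619), Gpx3 (-3.89, adjusted p = 0.113), Cyp2j5 (-3.33, adjusted p = 0.119), Rgs2 (-1.90, adjusted p = 0.0615) and Tff3 (-1.40, adjusted p = 0.13) were lost.

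The largest absolute levels among the lower genes belonged to immunoglobulins. Igkc, the kappa constant region, had 104889, 70671 and 0.382 CPM in the other cells of the 3 pools, and 97.3, 61.3 and 0.0202 CPM in members (-10.44 ± 0.73, edgeR adjusted p = 0.000251). Pool SLX-9703 had next to none in either class. Against other endocrine cells alone, Igkc differed by -0.06 (adjusted p = 0.993) and Igha by -0.84 (adjusted p = 0.909). Of the 12 immune markers, 6 were tested and 3 were lower in members, and 6, 6 and 3 of the 12 had no read in any member of the 3 pools. The summed level of the list was at most 837, 372 and 1461 CPM in a member and at most 688299, 713607 and 4811 CPM in another cell.

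Against the markers given for L-cells, the members matched in part. Besides Gcg, which the rule used, Pyy and Gpr119 were higher than in the other kept cells as a whole. Against Cck-high cells neither passed: a Pyy read was found after thinning in 66.7%, 38.5% and 53.3% of those cells, with wide intervals (29.9 to 92.5%, 13.9 to 68.4% and 26.6 to 78.7%). Chgb, the chromogranin B gene, had a read in all 54 members and levels of 15049.7, 12470.1 and 28148 CPM, against 2243, 5068 and 11448 CPM in the others, and the difference of 1.52 ± 0.28 had an edgeR adjusted p of 0.072. Trpa1, a cation channel opened by irritants, did not pass the test: its CPM was 30.1, 1.25 and 23.1 in members and 10.9, 20.4 and 23.1 in the others (-0.63 ± 0.82, edgeR adjusted p = 0.919), and a read was present in 15 of the 54 members and 26 of the 196 others. In pool SLX-9703 these shares were 57.9% and 20.3%, and after thinning they were 17.6%, 5.56% and 21.1% of members against 8.62%, 10.1% and 8.70% of the others. Without pool SLX-11179 the sign of the difference turned to 0.37 (adjusted p = 0.999). Among the 69 others of that pool, 1 cell had 2528 CPM of Trpa1, and it alone reached 1000 CPM.

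Genes of other epithelial types were read in the members at low to moderate levels. Of the 12 enterocyte markers, 11 were tested and 1, Anpep, was higher, with a read in 50 of the 54 members. The summed level of that list was at least 991, 696 and 1309 CPM in every member of the 3 pools, with medians of 2260, 2640 and 2650 CPM against 1469, 2036 and 3386 CPM in the other cells. It stayed under 10000 CPM in 53 of the 54 members, and 1 member of pool SLX-9703 reached 31903 CPM. The goblet list had medians of 753, 944 and 981 CPM in members and 129.8, 703 and 4534 CPM in the others. Goblet, Paneth, tuft and stem or cycling lists summed to less than 10000 CPM in every member, with highest values of 9246, 200.4, 63.5 and 154 CPM. Of the 7 goblet markers, 4 were tested and 2 were lower, while none of the 2 Paneth, 1 tuft or 6 stem and cycling genes tested passed. Of the 10 immediate early and stress genes all were tested, none passed, and their median log2 difference was -0.40.

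Granin and prohormone processing genes were read in the members, and 1 of the 14 tested, Mboat4, passed. Across all genes tested, the median log2 difference was -0.09. None of the 6 granins passed, although all 6 estimates were positive, with a median of 0.29. Of 8 prohormone processing genes tested, Mboat4 was higher and 7 did not pass (median 0.45). Pcsk1, the convertase that releases GLP-1 from proglucagon, had 382, 265 and 544 CPM in members and 145, 196 and 422 CPM in the others (0.47 ± 0.22, edgeR adjusted p = 0.668). Pcsk2, which makes glucagon in the pancreas, had no read in members of the shallow pools and 12.5 CPM in those of pool SLX-9703. Pam, which amidates peptide ends, had 285, 235 and 391 CPM in members against 77.5, 112 and 214 CPM (1.01 ± 0.22, edgeR adjusted p = 0.144). Its pool values did not overlap, as for 4.59% of all genes tested with members above.

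No transcription factor of the endocrine list passed out of 29 tested, 21 of which had a positive estimate (median 0.31). Isl1 had 332, 212 and 313 CPM in members and 48.01, 128 and 158 CPM in the others (1.23 ± 0.29, edgeR adjusted p = 0.186). For Etv1, an ETS factor, the difference was 1.18 ± 0.23 (adjusted p = 0.0954). Rfx6 had the opposite sign, with 34.4, 5.005 and 19.8 CPM in members and 65.3, 54.8 and 54.6 CPM in the others (-2.05 ± 0.44, adjusted p = 0.128).

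Of 12 nutrient-sensing receptors tested, Gpr119 alone passed, and 6 of the 12 had a positive estimate (median -0.46). Ffar1, which binds long-chain fatty acids, had 220.4, 228 and 208 CPM in members and 51.2, 110.1 and 160.4 CPM in the others, and Ffar3, which binds short-chain ones, 43.1, 58.2 and 51.7 against 11.4, 24.5 and 27.4 CPM. Neither pair overlapped between classes, as for 4.59% of all genes tested with members above, and the edgeR adjusted p was 0.302 and 0.359. None of 25 hormone, transmitter and cytokine receptors passed, 8 of them with a positive estimate (median -0.54). None passed among 25 ion channels (median 0.00), 12 sugar, peptide and amino acid carriers (median 0.26) and 30 exocytosis genes (median 0.28). Among 28 genes of cyclic nucleotide and G protein signalling, Rgs2 and Rgs4 were lower and 26 did not pass (median 0.20). Among 15 gut peptide and amine genes tested, Pyy was higher, Nts and Tph1 were lower, and Cck (0.68 ± 0.35, adjusted p = 0.718), Sct (-0.81 ± 0.29, adjusted p = 0.496) and Ghrl (1.298 ± 0.29, adjusted p = 0.139) did not pass. Against other endocrine cells alone, Sct was lower in members (-1.26, adjusted p = 0.0189). Of the 12 genes that the study names for its Gcg-rich cluster, 11 had a positive estimate and 2 passed (median 0.81), but the study chose them on these cells, so this is no independent evidence. Against Cck-high cells, 2 of the same 12 genes had a positive estimate and none passed (median -0.32). The same limit holds for the 9 genes it names for Pzp cells, of which 3 were lower and none had a positive estimate, and for the 6 tested genes of its Gip cells, of which 1, Fabp5, was lower.

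The members were next set beside 3 other endocrine classes in 1 edgeR model, with the pool as a block. The 3 comparisons share the member sums, so their results are not independent. Pzp-positive cells had at least 100 CPM of Pzp (14, 22 and 28 cells in the 3 pools), Gip-high cells at least 10000 CPM of Gip (12, 6 and 11 cells) and Cck-high cells at least 10000 CPM of Cck without meeting the other limits (9, 13 and 15 cells). A gene that chose a class was not tested against it.

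Against Pzp-positive cells, 42 of 9782 genes differed (0.429%), 25 of them higher in members (0.256%) and 17 lower (0.174%). The granins Chgb and Chga, Gpr119, Isl1, Fap, Anpep and Dpp4 were higher in members, and Tph1, Nts and Tff3 were lower. Chgb had 15049.7, 12470.1 and 28148 CPM in members and 1587, 1289.6 and 3702 CPM in Pzp-positive cells (3.34 ± 0.40, edgeR adjusted p = 0.000863), and Chga, chromogranin A, 722, 409.7 and 1139 against 245, 101 and 322 CPM (1.97 ± 0.33, adjusted p = 0.0145). Neither gene overlapped between the classes, and the pool values of members lay above without overlap for 3.49% of all genes tested here. Of the 6 granins, these 2 passed. Scg2, by contrast, had 3161, 4009.9 and 6643 CPM in members and 4032, 5673 and 8979.7 CPM in Pzp-positive cells (-0.21 ± 0.36, adjusted p = 0.999).

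Gpr119 had 110.2, 78.2 and 149.6 CPM in members and 7.06, 1.85 and 0.119 CPM in Pzp-positive cells (6.58 ± 1.19, edgeR adjusted p = 0.0222). Isl1 was higher by 1.82 ± 0.36 (adjusted p = 0.0359), and was the one factor of 28 tested that passed. Cplx1, a complexin that clamps vesicle fusion, had no read in any of the 3 Pzp-positive sums and 8.61, 6.26 and 30.2 CPM in members. Few members carried it, since 8 of the 54 had a read, and 2 of the 19 members of pool SLX-9703 had at least 10 CPM. Taking 3 reads in the sum of that pool as the limit, it was at least 593-fold higher in its members. Pyy had 2461, 2022 and 903 CPM in members and 11.8, 6.79 and 126 CPM in Pzp-positive cells, but its difference of 4.80 ± 1.25 had an adjusted p of 0.171.

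Fap (2.97 ± 0.36, edgeR adjusted p = 0.000863), Anpep (2.47 ± 0.45, adjusted p = 0.0222) and Dpp4, the peptidase that inactivates GLP-1 (1.83 ± 0.35, adjusted p = 0.0293), were also higher in members than in Pzp-positive cells, as were Naaladl1 (4.08 ± 0.58, adjusted p = 0.00312) and Mep1a (4.44 ± 0.73, adjusted p = 0.0123). Naaladl1 had 152, 159 and 219 CPM in members and 4.71, 8.02 and 22.7 CPM in Pzp-positive cells. Lect2, a secreted liver-type factor, had 18.9, 56.9 and 46.9 against 0, 0.617 and 0.305 CPM, and Hpd, an enzyme of tyrosine breakdown, 31.9, 17.5 and 51.95 against 1.18, 0 and 0.136 CPM (adjusted p = 0.00226 and 0.0206). Slc6a19, the main carrier of neutral amino acids in the gut, had 315, 347 and 366 CPM against 133, 90.1 and 170.5 CPM (1.66 ± 0.34, adjusted p = 0.0419).

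Tph1 fell by 11.47 on the log2 scale against Pzp-positive cells, which had 156, 209.8 and 597 CPM (edgeR adjusted p = 0.000387). Nts fell by 5.11 (adjusted p = 0.0145) and Tff3 by 2.98 (adjusted p = 0.000443), the latter from 4416, 4702 and 5503 CPM. Cck did not differ detectably, with 120702, 145297 and 141652 CPM in members and 160509, 92979 and 169603 CPM in Pzp-positive cells (0.15 ± 0.32, adjusted p = 0.999). The number of genes past the threshold was 26 without the block, and 11, 14 and 19 when the first, the second and the third pool was left out. Chgb, Fap, Tph1, Tff3 and Ambp kept their calls whichever pool was left out. Gpr119 lost its call without pool SLX-11179 (adjusted p = 0.33), and Chga, Dpp4, Isl1, Slc6a19, Anpep and Mep1a lost theirs whichever pool was left out. Naaladl1 and Nts lost theirs without pool SLX-11175 (adjusted p = 0.0858 and 0.258), and Lect2, Hpd and Cplx1 without pool SLX-9703 (adjusted p = 0.052, 0.585 and 0.284). Lect2 and Hpd also lost theirs without pool SLX-11179 (adjusted p = 0.096 and 0.163), and Cplx1 without pool SLX-11175 (adjusted p = 0.0615). Over all 15 alternatives, Nts was called in 12, with log2 differences from -6.19 to -3.01. With a Gcg limit of 5000 CPM, 25 genes passed, 19 higher and 6 lower in members.

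**Figure D4:**
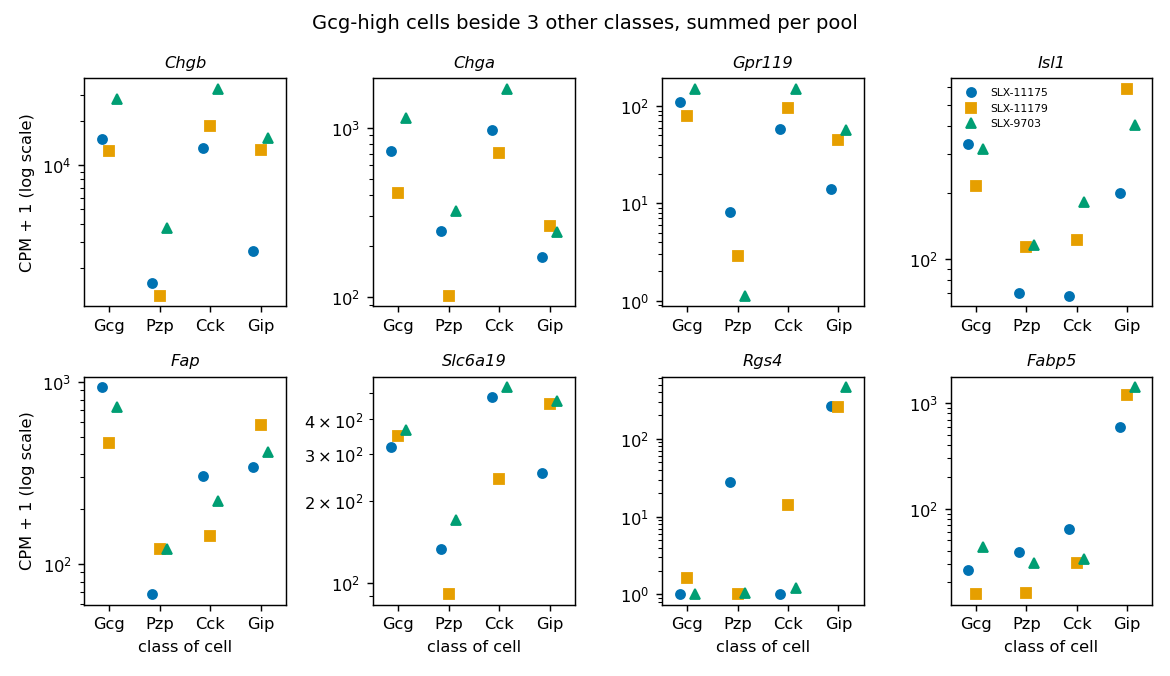
CPM + 1 on a log axis for 8 genes in the members (Gcg) and in Pzp-positive (Pzp), Cck-high (Cck) and Gip-high (Gip) cells, each point the sum of 1 pool. Chgb, Chga and Gpr119 are low in Pzp-positive cells, while Rgs4 and Fabp5 are highest in Gip-high cells.

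Against Gip-high cells, 94 of 9783 genes differed (0.961%), 59 of them higher in members (0.603%) and 35 lower (0.358%), the largest count of the 3 comparisons in this fit. Gip-high cells had a median of 31018.5, 118908 and 948000 reads, against 60624, 71331.5 and 2400020 in members. Their median of genes with a read was 2002, 4821 and 7390, against 3936, 3978 and 9650. Gip reached 610612 CPM in 1 such cell, and it is part of the total to which CPM is scaled. Several hormone genes were higher. Pyy had 9.72, 26.1 and 0.596 CPM in Gip-high cells (7.41 ± 1.40, edgeR adjusted p = 0.0207), Ghrl 1141, 45.4 and 1052 CPM (3.94 ± 0.78, adjusted p = 0.0274) and Cck 20313, 38441 and 33288 CPM (1.82 ± 0.33, adjusted p = 0.0183), all below each value of the members, as was the case for 14.6% of all genes tested here. Ucn3, urocortin 3, was low in both, with 45.6, 24.4 and 34.8 CPM in members and 3.24, 0 and 2.33 CPM in Gip-high cells (4.15 ± 0.82, adjusted p = 0.0274). Ffar2, a receptor for short-chain fatty acids, had 43.9, 44.4 and 133 CPM against 0, 1.37 and 1.61 CPM (5.72 ± 0.76, adjusted p = 0.00153).

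The factors Neurod1 (1.56 ± 0.31, edgeR adjusted p = 0.0276), Prox1 (2.71 ± 0.56, adjusted p = 0.0309) and Id2 (1.90 ± 0.41, adjusted p = 0.0418) were higher in members, and Rfx6 was lower, with 374, 371 and 309 CPM in Gip-high cells (-4.82 ± 0.63, adjusted p = 0.00124). Neurod1 shares exon sequence with Cerkl and Gm26755. Tff3, which was lower than in Pzp-positive cells, was here higher than in Gip-high cells (1.65 ± 0.31, adjusted p = 0.0186). The classes ranked Pzp-positive, Gcg-high, Gip-high by their Tff3 level in every pool.

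Fabp5 had 588, 1199 and 1409 CPM in Gip-high cells and fell by 5.74 in members (edgeR adjusted p = 3.61e-05). Rgs4 had 267, 256 and 458 CPM there (adjusted p = 0.0135) and Pkib, an inhibitor of protein kinase A, 178, 143 and 123 CPM against 6.03, 0 and 0.0606 CPM in members (adjusted p = 0.000982). The cannabinoid receptor gene Cnr1 fell by 4.01 ± 0.47 (adjusted p = 0.00075) and Cd44 by 6.51 ± 0.82 (adjusted p = 0.00102). Smoc2, a matrix protein that also marks intestinal stem cells, had no read in any member sum and 29.2, 39.9 and 36.4 CPM in Gip-high cells, which in pool SLX-9703 is at least 602-fold above the limit of 3 reads. In this comparison 38, 26 and 19 genes passed when the first, the second and the third pool was left out, and 59 without the block. Fabp5, Rgs4, Pkib, Cnr1, Cd44 and Rfx6 kept their calls whichever pool was left out, while Ucn3 and Neurod1 lost theirs in each case. Without pool SLX-9703 the adjusted p was 0.288 for Cck, 0.125 for Ghrl, 0.0655 for Ffar2, 0.312 for Prox1, 0.191 for Tff3 and 0.216 for Smoc2. Without pool SLX-11175 it was 0.112 for Pyy, 0.0756 for Ghrl, 0.284 for Id2 and 0.138 for Smoc2, and without pool SLX-11179 0.212 for Prox1, 0.315 for Id2 and 0.0944 for Tff3.

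Cck-high cells were the class with the fewest differences from members. Of 9781 genes, 4 differed (0.0409%), 2 higher (0.0204%) and 2 lower (0.0204%), and 447 had an unadjusted p below 0.05. Sct had 15634, 19302 and 22351 CPM in members and 81294, 91339 and 106537 CPM in Cck-high cells (-2.43 ± 0.40, edgeR adjusted p = 0.0478), and Nts had 27441, 5676 and 9415 CPM in Cck-high cells (-6.36 ± 0.93, adjusted p = 0.0387). The neighbouring loci 1700086L19Rik and Dbpht2 on chromosome 12 were higher, Dbpht2 with 43.9, 66.9 and 61.9 CPM in members and 1.77, 0 and 4.19 CPM in Cck-high cells (4.38 ± 0.71, adjusted p = 0.0478). Gpr119 had 56.5, 93.5 and 147 CPM in Cck-high cells, a difference of 0.03 ± 0.80 whose sign turned without pool SLX-11175 (-0.22) and with DESeq2 (-0.017). Pyy had 5009, 1038 and 344 CPM in Cck-high cells, higher than in members in the first pool and lower in the other pools (-0.03 ± 1.05, adjusted p = 1). The 6 granins all had a negative estimate against Cck-high cells, and none passed (median -0.44). Trpa1 had 88.3, 54.6 and 68.1 CPM in Cck-high cells, above the members in each pool (-2.85 ± 1.16, adjusted p = 1). No gene passed without pool SLX-11175 (782 with an unadjusted p below 0.05) or without pool SLX-9703 (374). Sct and Nts alone passed without pool SLX-11179, 2 genes passed without the block and DESeq2 called 39. With a Gcg limit of 20000 CPM, 3 genes passed, 0 higher and 3 lower in members, so 1700086L19Rik and Dbpht2 lost their calls.

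Within the members, genes were ranked by their Spearman correlation with Gcg over the cells of each pool (17, 18 and 19 cells), with Gcg and Gip taken out of the read total. Of 1847 genes with a read in at least 50% of the members of every pool, Gmds, an enzyme of GDP-fucose synthesis, had the highest median correlation (0.45, 0.70 and 0.72 in the 3 pools). Dpp4 followed (0.65, 0.68 and 0.54), then Fap (0.79, 0.63 and 0.56). The remaining genes of the highest 10 were Rpl23, Ywhae, Adh1, Kdelr2, Fars2, Mrpl52 and Rpl4, with medians from 0.60 down to 0.54. Cells of a pool share their library preparation, and the values are descriptions of these cells.

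The lowest correlations belonged to Sct, Id2, Chgb, Id3 and Tmem176a. Members with more Gcg had less Sct in every pool (-0.80, -0.71 and -0.58). Chgb was negative in each pool as well (-0.61, -0.60 and -0.09). The signs of Id2, Id3 and Tmem176a differed between pools. Cck was negative in all 3 pools (-0.71, -0.47 and -0.44), whereas Pyy had no common sign (0.25, -0.07 and 0.50).

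Dpp4 and Fap are the nearest genes to Gcg on chromosome 2 apart from loci with provisional Gm names, which was noticed after their values were seen. Dpp4 lies at chr2:62330073-62412231, 62299 bases from Gcg, and Fap at chr2:62500943-62574075, 17293 bases from it on the other side, and all 3 are on the minus strand. Dpp4 had 208, 181 and 306 CPM in members and 48.2, 87.5 and 105 CPM in the others (1.31 ± 0.25, edgeR adjusted p = 0.091). These values did not overlap, as for 4.59% of all genes tested with members above. Beyond Fap, Ifih1, 112148 bases from Gcg, had correlations of 0.18, -0.07 and -0.23, and 14.6, 20.6 and 41.3 CPM in members against 10.7, 15.5 and 34.1 CPM in the others. Gca, 180635 bases away, had positive correlations (0.42, 0.48 and 0.27), with 24.97, 4.38 and 21.4 CPM in members against 7.37, 5.11 and 14.4 CPM. Beyond Dpp4, Slc4a10, 147800 bases away, was not tested, with 0.861, 0 and 0.484 CPM in members and 1.26, 0.729 and 0.0249 CPM in the others. In Gip-high cells Fap had 342, 579 and 411 CPM (0.28 ± 0.33, adjusted p = 0.839). These sums include the 4 cells with both hormones, and Gcg summed the same way was 8772, 6685 and 24699.5 CPM. Without those 4 cells, a choice made after the values were seen, Fap had 404, 297 and 330 CPM and Gcg 64.2, 37.6 and 192 CPM, and the difference in Fap was not tested again.

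**Figure D5:**
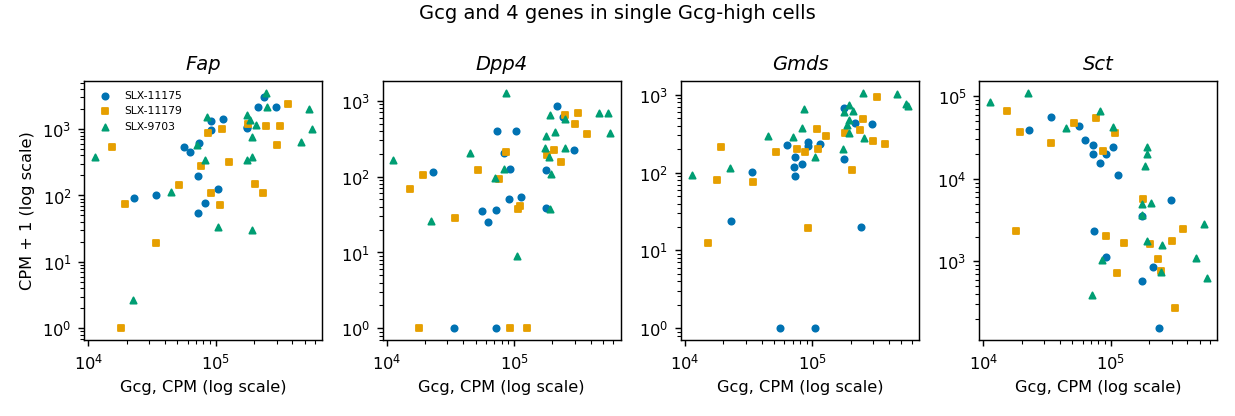
Gcg (CPM without Gcg and Gip in the total, log axis) against Fap, Dpp4, Gmds and Sct (CPM + 1, log axis) in the 54 members, by pool. Fap, Dpp4 and Gmds lie higher in members with more Gcg and Sct lies lower, with Spearman correlations for Sct of -0.80, -0.71 and -0.58 in the 3 pools.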

How the data were processed

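Single sorted cells were sequenced by Smart-seq2, which marks no strand and adds no molecular identifiers. Per the labels' processing notes, reads were aligned with GSNAP (version 2015-09-29) to mm10 and counted with HTSeq (version 0.5.3p3). The authors deposited raw read counts of 46078 mouse genes per cell, without normalization, and rows naming no gene (77.6% of reads) were left out. A further 4 columns matched no sample and were not used. Cells with at least 20000 reads on mouse genes and at most 20% mitochondrial reads were kept. No doublet caller was run. Symbols and positions came from GENCODE M21, whose table named 45143 of the gene identifiers, and the promoter from RefSeq (GRCm38.p6).

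Cells were not treated as replicates, so reads of the cells of a class were added up within each pool and compared with edgeR 4.0.16 (TMM, filterByExpr, quasi-likelihood test, Benjamini-Hochberg over all genes tested, false discovery rate 0.05) with the pool as a block. Gcg and Gip stayed in the library size and out of the fit. Members and others of a pool come from the same pool by the labels, and their deviations from the class means correlated by 0.164, 0.123 and 0.454. Between different pools these correlations ran from -0.322 to 0.138. The highest of them, members of pool SLX-11179 with the others of pool SLX-11175, was above the 0.123 within pool SLX-11179. DESeq2 1.42.0 and limma 3.58.1 (log2 of mean CPM + 1) were alternatives. Genes named were those of role-based lists, the up to 15 highest and 15 lowest folds past the threshold that moved alike in 3 of 3 pools with at least 20 CPM in the higher class, and the 10 highest and 5 lowest correlations with Gcg. The members and lists were chosen with earlier results of these data known. The fits were also run on simulated data, and no result of that check is given here.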

Additional observations from a re-analysis of the deposited data

How the results depend on the processing

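The number of genes different from other kept cells stayed within 1.5 times of 48 (32 to 55) under 10 alternatives: other read, mitochondrial, Gcg or Gip limits, only endocrine cells compared, RLE size factors, Gcg and Gip out of the library size, and limma. It was 275 with DESeq2, 452 without a filter on low counts, 125 with each cell thinned to 20000 reads and 17 without the replicate block, and 52 to 148 when 1 pool was left out. Against Pzp-positive cells, 42 genes became 126 with DESeq2, 106 without the filter, 76 when thinned, 25 with a Gcg limit of 5000 CPM, 26 without the replicate block, and 11 to 19 with 1 pool left out. Against Cck-high cells, 4 became 39 with DESeq2, 3 (0 higher) with a Gcg limit of 20000 CPM, 2 without the block and 0 to 2 with 1 pool left out. Against Gip-high cells, 94 became 359 with DESeq2, 59 without the block and 19 to 38 with 1 pool left out. The causes were not tested. Trpa1 against the other cells ranged from -1.41 to 0.37 with 1 pool left out, and Jchain changed sign to 0.75 when only endocrine cells were compared. Ddc, at -0.04, turned to 0.29 without the Gip limit, 0.00405 with a Gcg limit of 5000 CPM and 0.0359 with limma. It was 0.000787 without the replicate block and -0.21 to 0.0463 with 1 pool left out. Gpr119 against Cck-high cells turned to -0.017 with DESeq2 and ranged from -0.22 to 0.22 with 1 pool left out. Of the values of named or called genes under alternatives, 1479 kept their side of the threshold, 489 lost it, 40 gained it and 10 changed sign. Mboat4, Cd177, Trpa1 and Cplx1 rest on few cells, and shallow cells limit low genes most.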
